A study of Homo sapiens with 17 samples.

Results

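The mRNAs of 8 genes of cholesterol synthesis and its control were followed through 3 RNA fractions of one human cell line. The genes were taken by name: HMGCS1, IDI1, FDPS, FDFT1, SQLE and DHCR7 encode enzymes of the pathway, INSIG1 encodes a brake on it and SREBF2 encodes the transcription factor that drives it. All 8 were present among the 18869 genes of the table. None of them encodes a receptor or carrier for cholesterol uptake, so genes of uptake are described from a separate list. The cells were HEK293T, an established embryonic kidney line. They carried an inducible fusion of the cytidine deaminase APOBEC1 to the ribosomal protein RPS2 (RPS2-STAMP) or APOBEC1 alone (Control-STAMP). Every culture received 50 ng/ml doxycycline for 24 h and was crosslinked with 0.1% formaldehyde. RNA was then taken as Input or after immunoprecipitation (IP) of the nuclear poly(A)-binding protein PABPN or the cytoplasmic poly(A)-binding protein PABPC. By the methods of the study, all of this RNA came from the cytoplasm of fractionated cells, which the sample labels do not state; Input is then cytoplasmic RNA and not RNA of the whole cell. RPS2-STAMP had 3 samples of Input, 3 of PABPN IP and 3 of PABPC IP, and Control-STAMP had 3, 3 and 2. The table gave 1 combined value per gene and fraction, so no spread between replicates could be set beside any difference and no test was run.

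Cholesterol is built from acetyl units through mevalonate, isoprenoid diphosphates and squalene. When sterols are scarce, the SREBF2 precursor leaves the endoplasmic reticulum, is cleaved in the Golgi, and its released part switches on the enzymes of the pathway; INSIG1 holds the precursor in the endoplasmic reticulum when sterols are plentiful. A newly made mRNA first carries PABPN on its poly(A) tail and later PABPC, and cytosines edited to uridine by RPS2-STAMP mark mRNAs that have met ribosomes.

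Transcript level was read as TPM, a share of all transcripts corrected for length, which the authors summed over exonic and intronic regions and averaged within a fraction; whether Control-STAMP samples entered the average is not stated in the table. Over all listed genes, TPM summed to 854272 in Input, 975719 in PABPN IP and 995724 in PABPC IP, so the totals were unequal. The 8 mRNAs were well represented. In Input their TPM ran from 17.2 for HMGCS1 to 106.5 for INSIG1, with a median of 43.5. The background throughout was the set of 9607 protein-coding genes that reached 5 TPM in PABPN IP and also in PABPC IP, and its median in Input was 15.8. All 8 genes passed that filter. In PABPN IP the 8 genes had a median of 66.2 TPM against 38.4 for the background, and in PABPC IP 74.7 against 28.9. The median percentile of the 8 genes within the background was 80.2 in Input, 76.0 in PABPC IP and 71.4 in PABPN IP. INSIG1 was the most abundant of the 8 in all 3 fractions, and HMGCS1 the least.

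**Figure D1:**
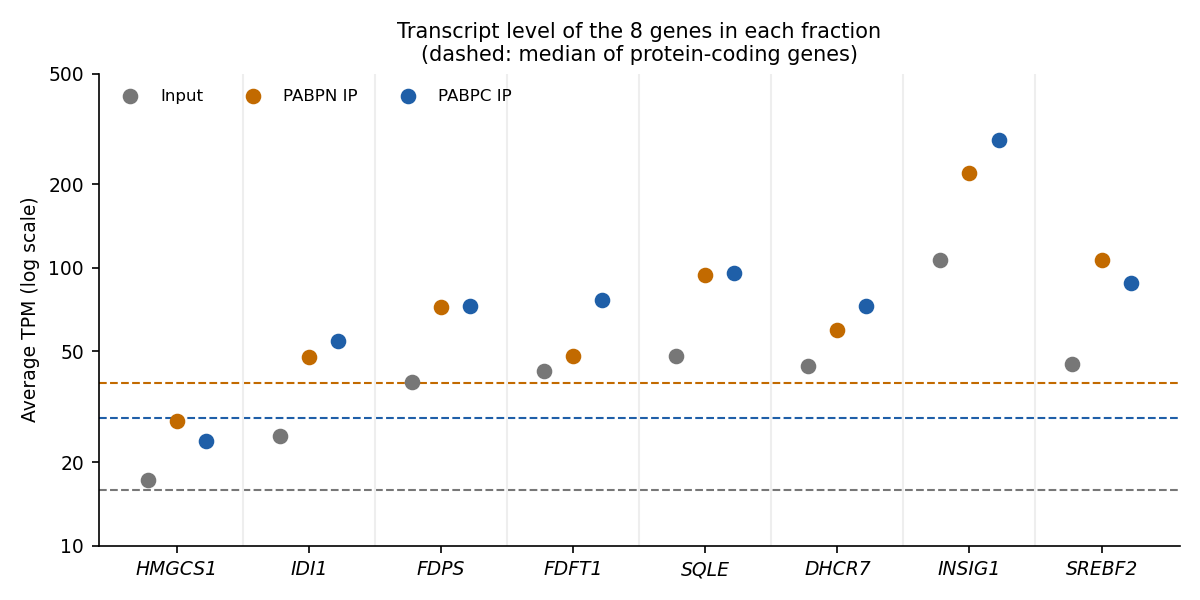
Average TPM on a log axis for each of the 8 genes, with 1 point per fraction (grey, Input; orange, PABPN IP; blue, PABPC IP) and dashed lines at the median of 9607 protein-coding genes in the same colours. Each gene has its lowest value in Input, and INSIG1 lies highest at 106.5, 219.4 and 288.9 TPM in Input, PABPN IP and PABPC IP.

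Translation begins at the start codon, and the bases around it differed among the 8 mRNAs. The contexts of 6 of them are shown because the editing described further on was made by APOBEC1 carried on a ribosomal protein. Whether context and editing are linked was not tested. The sequences of FDFT1 and SQLE are not reported here but enter the counts below. They were read from the canonical transcripts of GENCODE release 44 on hg38, with 9 bases before and 3 after the ATG, and the capitals mark the ATG in the first coding exon. The start codons lie at chr5:43298963-43298965 (HMGCS1, minus strand), chr10:1049001-1049003 (IDI1, minus strand), chr1:155309790-155309792 (FDPS, plus strand), chr11:71444950-71444952 (DHCR7, minus strand), chr7:155298286-155298288 (INSIG1, plus strand) and chr22:41833271-41833273 (SREBF2, plus strand).
HMGCS1: tctttcaccATGcct
IDI1: ggccgggcgATGtgg
FDPS: gggaacaggATGccc
DHCR7: gagggcccaATGgct
INSIG1: gtgtgaccgATGccc
SREBF2: agccgggcgATGgac
A purine stood at the third base before the ATG in 6 of the 8 genes and in 87.5% of 9560 background genes. A G followed the ATG directly in 3 of the 8 and in 54.6% of the background. FDFT1 and SREBF2 had both features, as did 47.6% of the background.

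The transcripts also differed in build. Their length ran from 1417 bases for FDPS to 5350 for HMGCS1, with a median of 2823.5 against 3270 over 9601 background genes. The coding part had a median of 1344 bases against 1323, and the 3′ untranslated region 1304.5 against 1349. FDPS had the shortest 3′ untranslated region of the 8, at 56 bases, and HMGCS1 the longest, at 3661. Cytosine, the base that APOBEC1 edits, made up 16.8% of the IDI1 transcript and 30.5% of the DHCR7 transcript, and 23.7% at the background median. Genes on the opposite strand covered 90.7% of the exon bases of IDI1, 60.5% of those of HMGCS1 and 59.0% of those of FDPS. The authors counted TPM without the regions where genes of their own annotation overlap, so for these 3 genes the TPM may rest on part of the transcript.

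The first question was how far each mRNA came down with PABPN. TPM in the IP was set against Input as a log2 ratio with 0.5 TPM added to both. The background median of this ratio was 1.10 for PABPN IP and 0.95 for PABPC IP, so ratios are given relative to it, and a gene counted as higher or lower at 0.5 from it. Both ratios use the same Input values. FDFT1, squalene synthase, had 42.6 TPM in Input and 48.0 in PABPN IP, a centred log2 ratio of -0.93. DHCR7, which makes the last step to cholesterol in one branch of the pathway, had 44.4 and 59.9 TPM, a ratio of -0.67. Both counted as lower. They are among 5 of the 8 that encode proteins of the endoplasmic reticulum membrane, with SQLE, INSIG1 and SREBF2. The median ratio of those 5 was -0.14, with 2 lower. The 3 of the cytosol or peroxisome had a median of -0.21, with 0 lower. Thus 2 of 8 genes were lower in PABPN IP, where 20.6% of the background was lower, and none was higher, where 23.7% of the background was.

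The remaining 6 lay within the threshold. HMGCS1, which joins acetoacetyl-CoA and acetyl-CoA, had 17.2 TPM in Input and 28.2 in PABPN IP, a ratio of -0.41. FDPS, farnesyl diphosphate synthase, had 38.8 and 72.4 TPM, a ratio of -0.21. IDI1, isopentenyl diphosphate isomerase, had 24.9 and 47.6 TPM, a ratio of -0.18. These are the enzymes of the cytosol and peroxisome. SQLE, squalene epoxidase, had 48.3 and 94.6 TPM, a ratio of -0.14. INSIG1 had 106.5 and 219.4 TPM, a ratio of -0.06. SREBF2 alone lay above the background median, with 45.1 and 106.7 TPM and a ratio of 0.13. The median of the 8 was -0.20. Before centring, all 8 ratios were above 0 and 6 passed 0.5, as did 84.1% of the background.

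In PABPC IP the median of the 8 mRNAs lay closer to the background. Their centred ratios to Input had a median of -0.02, against -0.20 in PABPN IP. HMGCS1 and INSIG1 lay farther from the background than in PABPN IP. With a pseudocount of 5 TPM the medians were -0.061 in PABPN IP and 0.13 in PABPC IP, so the one in PABPN IP then lay closer to the background. HMGCS1 was the only one to pass the threshold, with 17.2 TPM in Input and 23.7 in PABPC IP and a ratio of -0.50, just past 0.5. So 1 of 8 was lower, against 17.4% of the background, and none was higher, against 9.02%. INSIG1 stood at the other end, with 106.5 and 288.9 TPM and a ratio of 0.48, just inside the threshold. IDI1 had 24.9 and 54.7 TPM, a ratio of 0.17. SQLE (48.3 and 95.4 TPM) and SREBF2 (45.1 and 88.2 TPM) had ratios of 0.02 and 0.01. FDPS had 72.9 TPM in PABPC IP and a ratio of -0.05. FDFT1 had 76.4 TPM and a ratio of -0.12, and DHCR7 had 73.0 TPM and a ratio of -0.24. Before centring, 7 of 8 passed 0.5 upward, as did 80.2% of the background.

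Set directly against each other, the IPs differed most for FDFT1. Its 76.4 TPM in PABPC IP and 48.0 in PABPN IP gave a centred log2 ratio of 0.85. INSIG1 followed with 288.9 and 219.4 TPM and a ratio of 0.59. These 2 of 8 counted as higher in PABPC IP, against 29.9% of the background, and none counted as lower, against 31.1%. DHCR7 (0.47) and IDI1 (0.39) lay below the threshold, and SQLE (0.20) and FDPS (0.20) nearer the background median. HMGCS1 (-0.05) and SREBF2 (-0.09) were on its other side. The median of the 8 was 0.29. Without centring 1 of 8 was higher and 0 lower, against 22.7% and 37.2% of the background. The ratio of INSIG1 was then 0.40, within the threshold.

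**Figure D2:**
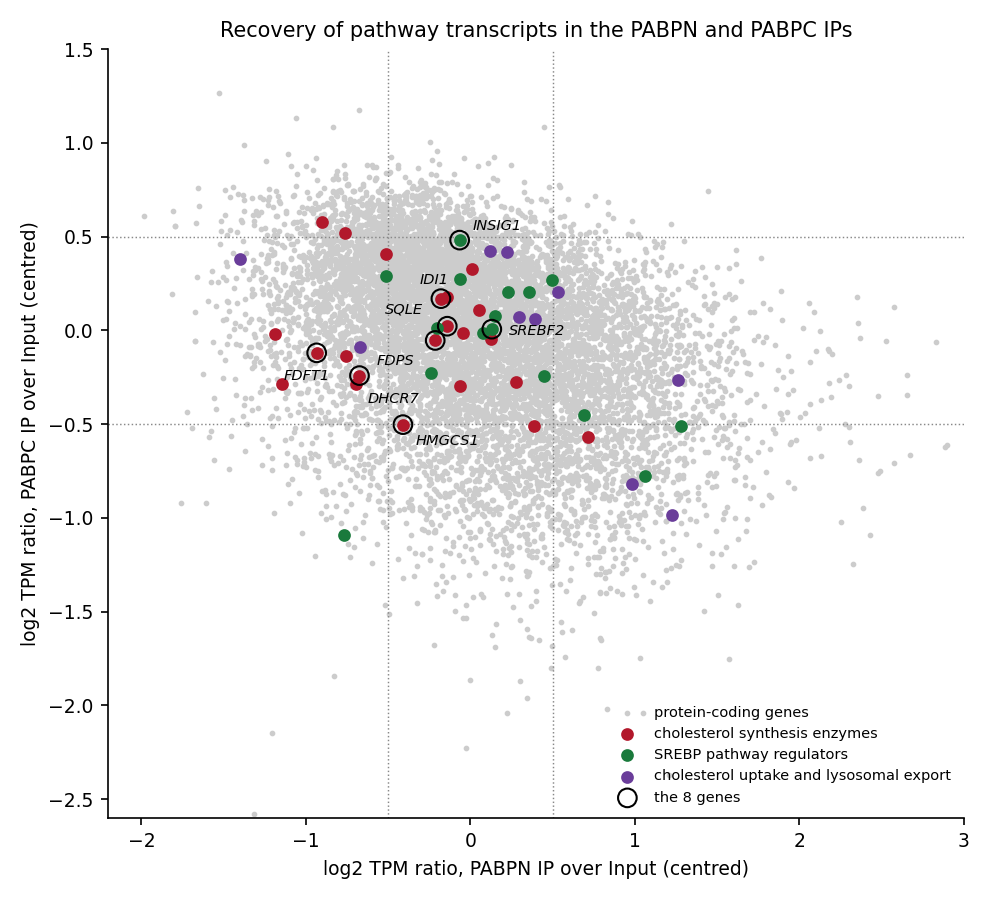
Centred log2 TPM ratio to Input for PABPN IP (horizontal) and PABPC IP (vertical); grey points are protein-coding genes, coloured points are genes of 3 pathway lists, rings mark the 8 genes and dotted lines the threshold of 0.5. Both axes use the same Input, so the shape of the cloud is not a result; FDFT1 and DHCR7 lie left of -0.5, HMGCS1 lies at the lower line, and 40 of the 9607 background genes fall outside the plotted range.

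Editing was read as normalized EPKM, a rate of edits scaled to transcript length and mapped reads, from which the authors subtracted editing in the control cells. The number of edited reads behind a value is unknown, and a value of 0 means only that the gene is listed at 0. Among background genes, 2100 were at 0 in Input, 1676 in PABPC IP and 2605 in PABPN IP. Of the 8 genes, 3 were listed at 0 in some fraction: FDFT1 in Input, and IDI1 and INSIG1 in PABPN IP. The median EPKM of the 8 was 0.0506 in Input, 0.0888 in PABPC IP and 0.0213 in PABPN IP. The background medians were 0.0273, 0.0501 and 0.0334. The 8 genes thus had a higher median than the background in Input and PABPC IP and a lower one in PABPN IP.

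SQLE had the highest EPKM of the 8 in Input and in PABPC IP, but not in PABPN IP. Its EPKM was 0.0794 in Input, 0.0243 in PABPN IP and 0.244 in PABPC IP, 10.1 times that in PABPN IP. In PABPC IP SQLE stood at percentile 96.8 of the background. IDI1 had an EPKM of 0.0081 in Input, 0 in PABPN IP and 0.132 in PABPC IP. FDFT1 was listed at 0 in Input, with 0.0184 in PABPN IP and 0.0782 in PABPC IP, 4.26 times that in PABPN IP. FDPS had 0.0426, 0.0328 and 0.0822 in Input, PABPN IP and PABPC IP, a ratio of 2.51 between the IPs. In these 4 enzymes the highest value was that of PABPC IP.

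Both regulators among the 8 also had their highest value in PABPC IP. INSIG1 had an EPKM of 0.0699 in Input, was listed at 0 in PABPN IP, and had 0.0954 in PABPC IP; by TPM it was the most abundant of the 8 in PABPN IP. SREBF2 had 0.0632 in Input, 0.0781 in PABPN IP and 0.113 in PABPC IP, a ratio of 1.45 between the IPs. The 2 remaining enzymes had another order. HMGCS1 had its highest EPKM in Input, at 0.0586, with 0.00979 in PABPN IP and 0.0222 in PABPC IP. DHCR7 had 0.0333 in Input and nearly equal values of 0.0747 in PABPN IP and 0.0700 in PABPC IP.

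**Figure D3:**
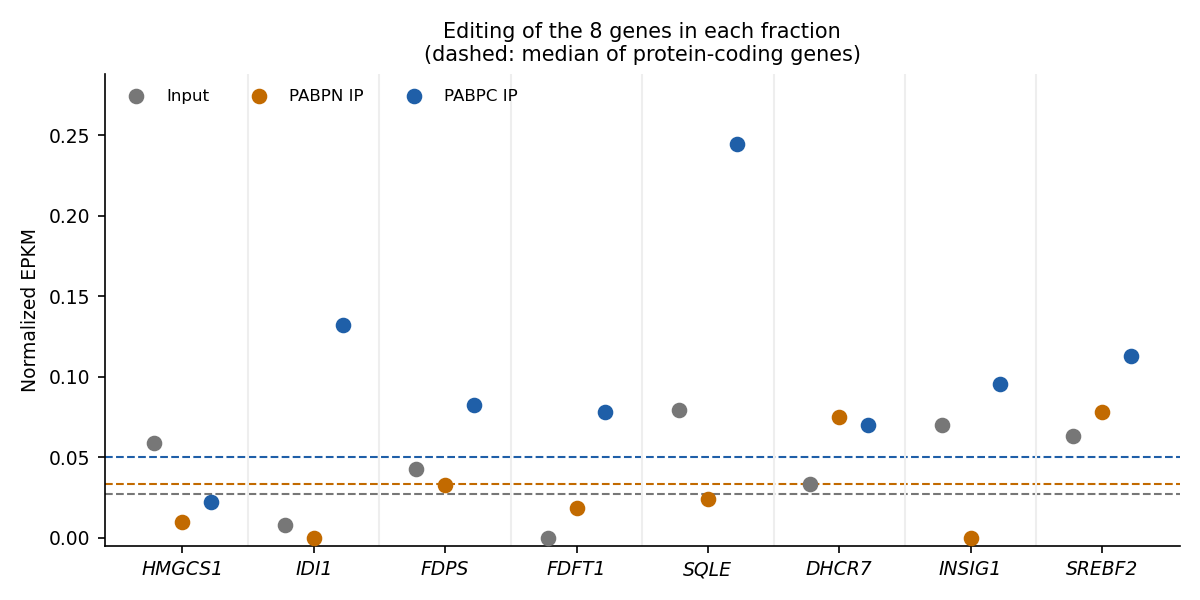
Normalized EPKM of each of the 8 genes, with 1 point per fraction (grey, Input; orange, PABPN IP; blue, PABPC IP) and dashed lines at the medians of 9607 protein-coding genes. The blue point is the top one in 6 of 8 genes and reaches 0.244 for SQLE; HMGCS1 is highest in Input and DHCR7 in PABPN IP.

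Counted over the 8, EPKM was higher in PABPC IP than in PABPN IP for 7, where 56.4% of the background was, and highest of all in PABPC IP for 6, where 42.6% was. On the scale of log2(EPKM + 0.01), a difference of at least 2-fold was counted. Between the IPs, IDI1, INSIG1, SQLE, FDFT1 and FDPS were higher in PABPC IP by this measure, 5 of 8 against 36.3% of the background, and none was lower, against 21.1%. The median log2 difference of the 8 was 1.37, and that of the background 0.32. Against Input, FDFT1, IDI1 and SQLE were higher in PABPC IP, 3 of 8 against 35.1%, and HMGCS1 was lower, 1 of 8 against 19.5%. The median log2 difference was 0.85 for the 8 and 0.30 for the background. In PABPN IP, FDFT1 was higher than in Input, 1 of 8 against 28.4%, and INSIG1, HMGCS1 and SQLE were lower, 3 of 8 against 29.6%. The median was -0.58 for the 8 and 0 for the background. With a pseudocount of 0.1 EPKM, 2 of 8 were higher in PABPC IP than in PABPN IP in place of 5, and the background share was 9.004% in place of 36.3%. At that pseudocount 1 was higher and 0 lower in PABPC IP than in Input, against 6.21% and 4.26%, and 0 were higher or lower in PABPN IP than in Input, against 4.32% and 7.11%.

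EPKM grows with transcript level, so it was also divided by TPM. Per 1000 TPM, the 8 genes had a median EPKM of 0.924 in Input, 1.08 in PABPC IP and 0.365 in PABPN IP, against background medians of 1.61, 1.38 and 0.704. In each fraction 2 of the 8 lay above the background median. They were HMGCS1 (3.40) and SQLE (1.65) in Input, SQLE (2.56) and IDI1 (2.41) in PABPC IP, and DHCR7 (1.25) and SREBF2 (0.732) in PABPN IP. INSIG1 had the lowest value of the 8 in PABPC IP, 0.330. This measure was higher in PABPC IP than in PABPN IP in 7 of 8 genes and in 59.5% of the background. By the same measure the abundant genes GAPDH, ACTB and EEF1A1 stood at background percentiles 26.5, 28.9 and 23.5 in Input. They stood at 19.6, 24.4 and 18.8 in PABPC IP and at 35.5, 40.8 and 35.2 in PABPN IP. Whether the low medians of the 8 go with their high TPM was not tested.

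**Figure D4:**
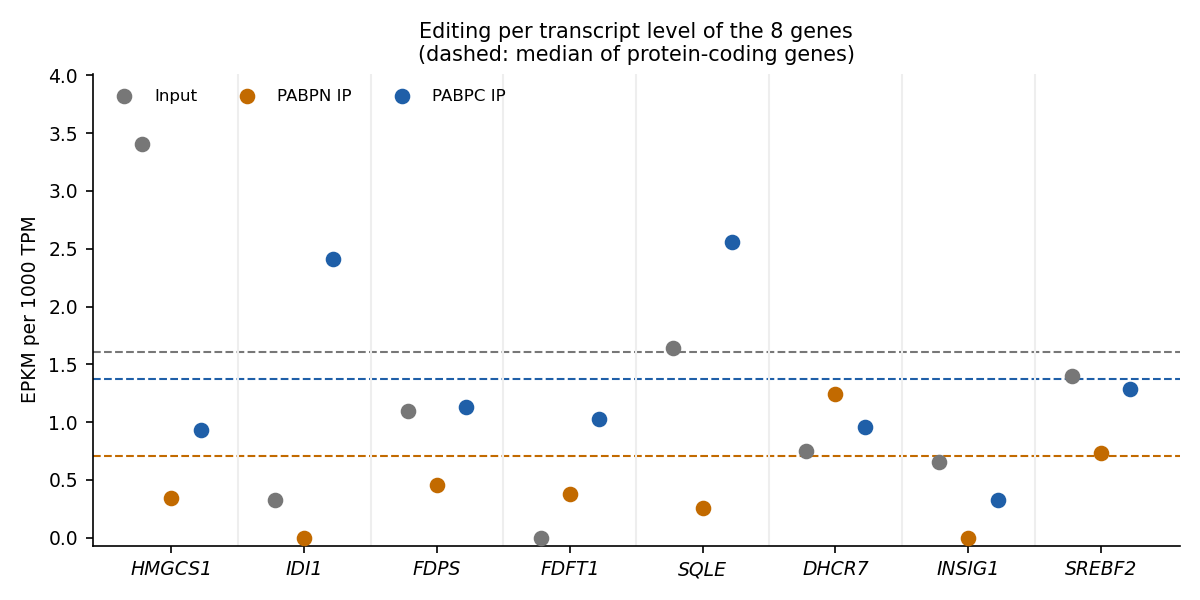
EPKM per 1000 TPM for each of the 8 genes by fraction (grey, Input; orange, PABPN IP; blue, PABPC IP), with dashed lines at the medians of 9607 protein-coding genes. Most points lie under the line of their own colour; the highest is HMGCS1 in Input at 3.40, and IDI1 and SQLE stand out in PABPC IP at 2.41 and 2.56.

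Across the whole pathway, several enzymes were lower in PABPN IP. All 22 synthesis enzymes of the list, 6 of the 8 genes included, were in the table and passed the filter. By TPM, 9 of 22 were lower in PABPN IP than Input, against 20.6% of the background, and only LSS, lanosterol synthase, was higher (0.72), against 23.7%. Besides FDFT1 and DHCR7 they included ACAT2 (-1.19), NSDHL (-1.15), PMVK (-0.90), ERG28 (-0.76), CYP51A1 (-0.70) and EBP (-0.51), given as centred log2 ratios. Without centring, 0 of 22 were lower and 14 were higher, against 0.583% and 84.1% of the background. ACAT2, the thiolase that makes acetoacetyl-CoA, had 46.4 TPM in Input, 43.8 in PABPN IP and 89.0 in PABPC IP. NSDHL, which removes a carbon from the sterol nucleus, had 41.8, 40.5 and 66.6 TPM. The median of the 22 was -0.20, and without the 8 genes, over 16, -0.10.

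In PABPC IP 5 of the 22 enzymes passed the threshold by TPM. PMVK (0.58) and ERG28 (0.52) were higher than in Input, where 9.02% of the background was higher and 17.4% lower, and the 3 lower ones included LSS (-0.57) and HMGCS1 (-0.50), given as centred log2 ratios. Without centring 19 of 22 were higher and 0 lower, against 80.2% and 0.854%, and the ratio of LSS was 0.38. Between the IPs, 7 of 22 were higher in PABPC IP, against 29.9% of the background, among them PMVK (1.52), ERG28 (1.32), ACAT2 (1.21), EBP (0.96), NSDHL (0.90) and FDFT1 (0.85). The 3 lower ones, against 31.1%, included LSS (-1.25) and HSD17B7 (-0.51). The median was 0.36.

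Editing of the enzymes spread widely. Between the IPs, 11 of 22 had at least 2-fold higher EPKM in PABPC IP, against 36.3% of the background, among them PMVK, IDI1, ACAT2, TM7SF2, CYP51A1, SQLE, FDFT1, LBR, FDPS and MVK. MVK passed with an EPKM of only 0.0107 in PABPC IP against 0 in PABPN IP. Editing counts of this and the other lists rest on a pseudocount of 0.01 EPKM, and no other was tried for them. EBP, ERG28 and MSMO1 were lower, 3 of 22 against 21.1%. PMVK had an EPKM of 0.363 in PABPC IP and was listed at 0 in Input and PABPN IP. EBP went the other way, with 0.150 in Input, 0.224 in PABPN IP and 0 in PABPC IP. Against Input, PMVK, TM7SF2, FDFT1, IDI1, HSD17B7, MVD and SQLE were among the 8 of 22 higher in PABPC IP, against 35.1% of the background, and EBP, ERG28, MSMO1, NSDHL and HMGCS1 were lower, 5 of 22 against 19.5%. In PABPN IP, HSD17B7, FDFT1 and MVD were higher than in Input, 3 of 22 against 28.4%, and ACAT2, CYP51A1, NSDHL, HMGCS1, SQLE, MSMO1 and LBR were lower, 7 of 22 against 29.6%. The median log2 difference between the IPs was 0.95 over the 22, 0.76 over the 16 without the 8 genes and 0.32 over the background.

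The regulators of SREBP had TPM ratios with medians near those of the background. All 16, SREBF2 and INSIG1 included, passed the filter, and their median centred log2 ratio by TPM was 0.14 for PABPN IP, 0.01 for PABPC IP and -0.07 between the IPs. SREBF1, the relative of SREBF2 that favours fatty acid genes, had 6.19 TPM in Input, 34.5 in PABPN IP and 8.62 in PABPC IP. Its ratios were 1.28 for PABPN IP and -0.51 for PABPC IP. MARCHF6, a ubiquitin ligase that acts on SQLE, had 16.6 TPM in Input, 76.5 in PABPN IP and 18.9 in PABPC IP, with ratios of 1.06 and -0.78. USP20, a deubiquitinase, was also higher in PABPN IP (0.69), and the 2 lower ones included VCP (-0.77). In all, 3 of 16 were higher in PABPN IP, against 23.7% of the background, and 2 lower, against 20.6%; without centring 15 were higher and 0 lower, against 84.1% and 0.583%. VCP, an ATPase that pulls proteins from the membrane, was lower in PABPC IP too (-1.09), where 3 of 16 were lower, against 17.4%, and 0 higher, against 9.02%. Without centring 13 of 16 were higher there and 0 lower, against 80.2% and 0.854%, and the ratios of SREBF1, MARCHF6 and VCP were 0.45, 0.17 and -0.14. Between the IPs, INSIG1 (0.59) was among the 2 of 16 higher in PABPC IP, against 29.9%, and MARCHF6 (-1.80), SREBF1 (-1.75), USP20 (-1.10) and FAF2 (-0.65) were lower, 4 of 16 against 31.1%; without centring these counts were 1 and 4, against 22.7% and 37.2%.

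By EPKM, 4 of 16 regulators were at least 2-fold higher in PABPC IP than in PABPN IP (INSIG1, SREBF1 and SCAP among them), against 36.3% of the background, and 6 were lower (NPLOC4, RNF139, FAF2, VCP, MARCHF6 and UFD1), against 21.1%. SCAP, which escorts SREBF2 to the Golgi, had 0.0397 in Input, 0.0715 in PABPN IP and 0.162 in PABPC IP. VCP had 0.238, 0.321 and 0.105. UFD1 passed with an EPKM of only 0.0119 in PABPN IP against 0 in PABPC IP. Against Input, USP20, INSIG2, SCAP and SREBF1 were among the 5 of 16 higher in PABPC IP, against 35.1%, and FAF2, MARCHF6 and VCP were lower, 3 of 16 against 19.5%. NPLOC4, RNF139, USP20, INSIG2 and UFD1 were higher in PABPN IP than in Input, 5 of 16 against 28.4%, and the 3 lower ones, against 29.6%, included INSIG1 and SREBF1. The median log2 difference between the IPs was -0.15, against 0.32 for the background.

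Of 14 genes of cholesterol uptake and lysosomal export, 13 were found and 10 passed the filter. LRP1, GRAMD1B and GRAMD1C had too low a TPM. MYLIP, a ubiquitin ligase, had 8.60 TPM in Input, 46.5 in PABPN IP and 14.2 in PABPC IP, a centred log2 ratio of 1.26 in PABPN IP. NPC1, the lysosomal membrane exporter, had 5.07, 23.1 and 5.61 TPM, with ratios of 0.98 and -0.82. STARD4 was also higher in PABPN IP (0.53). NPC2, the soluble partner of NPC1, went the other way, with 32.0, 25.9 and 81.4 TPM and a ratio of -1.40 in PABPN IP, and LIPA was lower there too (-0.67). So 4 of 10 were higher in PABPN IP, against 23.7% of the background, and 2 lower, against 20.6%. Without centring 8 were higher and 0 lower, against 84.1% and 0.583%, and the ratio of LIPA was 0.43. In PABPC IP 0 of 10 were higher than in Input, against 9.02%, and 2 were lower, against 17.4%; without centring 8 were higher and 0 lower, against 80.2% and 0.854%, and the ratio of NPC1 was 0.13. Between the IPs, NPC2 (1.82) and LIPA (0.62) were higher in PABPC IP, 2 of 10 against 29.9%, and the 3 lower ones, against 31.1%, included NPC1 (-1.76) and MYLIP (-1.49); without centring 1 was higher and 3 lower, against 22.7% and 37.2%.

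Editing of the uptake genes varied from gene to gene. NPC1 had an EPKM of 0.0290 in Input, 0.00230 in PABPN IP and 0.0620 in PABPC IP. NPC2 had 0.0636, 0.0819 and 0.206. Between the IPs 5 of 10 were at least 2-fold higher in PABPC IP, against 36.3% of the background, among them SCARB1, STARD3, NPC1 and NPC2, and MYLIP was lower, 1 of 10 against 21.1%. Against Input, the 4 of 10 higher in PABPC IP, against 35.1%, included STARD3 and NPC2, and MYLIP and STARD4 were lower, 2 of 10 against 19.5%. MYLIP was among the 2 of 10 higher in PABPN IP than in Input, against 28.4%, and SCARB1, NPC1 and STARD4 were lower, 3 of 10 against 29.6%. The median log2 difference between the IPs was 0.87, against 0.32.

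The genes outside the lists most like the 8 were PRKCI, SMARCE1, POR, SP4 and TAB1. Likeness was the Euclidean distance to the median of the 8 over 5 values, the ratios to Input by TPM and log2(EPKM + 0.01) in each fraction, and came to 0.316, 0.417, 0.464, 0.469 and 0.473. Of the 8 themselves, FDPS lay nearest that median at 0.506 and FDFT1 farthest at 2.70. PRKCI had EPKM of 0.0576 in Input, 0.0227 in PABPN IP and 0.0830 in PABPC IP. POR, which passes electrons to SQLE and CYP51A1, had 0.0449, 0.0144 and 0.0816. Abundant genes were measured for scale. GAPDH had 2463 TPM in Input, 1863 in PABPN IP and 4961 in PABPC IP, ACTB had 1891, 1610 and 3819, and EEF1A1 had 2454, 2239 and 6770.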

How the data were processed

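Normalized EPKM, a signal per gene and fraction, was deposited by the authors as 1 combined value; the file does not name the samples combined. Average TPM per fraction was also deposited by the authors, as the sum of exonic and intronic TPM. The submitters' processing notes name STAR, featureCounts 2.0.2 and hg38. The table does not give the number of reads behind each gene's value. The planned limma fits needed values per sample and were not run.

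From the table, log2 ratios with a pseudocount of 0.5 TPM or 0.01 EPKM were computed in Python 3.11.15 with pandas 2.3.3 and NumPy 2.4.6; TPM ratios were centred on the median of protein-coding genes with TPM of at least 5 in both IPs. Thresholds were 0.5 (log2) for TPM and 2-fold for EPKM. No p-value was computed. The ratios and thresholds were tested on simulated data with planted changes, small noise in TPM and none in EPKM. This checks the calculation and cannot show how often noise passes a threshold in the real data. Named were the 8 genes, list genes past a threshold, the extremes of each list and the 5 most similar genes; some list genes are counted but their own values are not reported here. The genes and lists were chosen with earlier results of these data known; transcript features, start contexts and further named values were added after the data were seen. Alternatives covered centring, pseudocount, filter and threshold for the 8 genes, and for the lists only TPM without centring.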

Additional observations from a re-analysis of the deposited data

How the results depend on the processing

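No paired analysis was possible because the table holds 1 combined value per gene and fraction; for the same reason the replicate block and the alternatives that leave out a replicate were not run. With no replicates, a median was taken as moved when it shifted by over 0.1 on the log2 scale, a percentile by over 5 points, and a count or a ratio by over 1.5 times. A called value of a single gene was judged by its sign and its side of the threshold alone, whatever its size. These limits were chosen after the values were seen. The cause of each shift was not tested, apart from what an alternative changes by construction.

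Transcript level depended on centring. Without it the median of the 8 genes was 0.91 for PABPN IP over Input, with 6 higher and 0 lower (84.1% and 0.583% of the background), 0.93 for PABPC IP over Input, with 7 higher and 0 lower (80.2% and 0.854%), and 0.11 between the IPs, with 1 higher (22.7%). FDFT1 and DHCR7 in PABPN IP then turned to 0.17 and 0.43, and HMGCS1 in PABPC IP to 0.45. With TPM rescaled to sum to 1000000 and no centring, the medians were 0.72, 0.71 and 0.076. Then 6, 6 and 1 were higher (75.1%, 68.1% and 21.5% of the background) and 0 lower over Input in either IP (1.08% and 1.63%). DHCR7 and HMGCS1 turned to 0.24 and 0.24. FDFT1 in PABPN IP fell within the threshold, at -0.020, and so did INSIG1 between the IPs, at 0.37. Centred on all genes with a TPM, the medians were 0.18 for PABPC IP over Input (1 higher, 0 lower; 24.3% and 10.2% of the background) and 0.56 between the IPs (4 higher, 40.5%). A pseudocount of 5 TPM gave -0.061 for PABPN IP (1 lower, 14.2% of the background) and 0.13 for PABPC IP over Input (1 higher, 0 lower; 14.1% and 12.9%). A background of TPM of at least 1 gave 1 higher and 0 lower in PABPC IP over Input (11.6% and 17.8%), and 0.42 between the IPs (4 higher, 30.5% of the background). No filter gave 0.12 in PABPC IP over Input (1 higher, 0 lower; 14.1% and 20.5%) and 0.46 between the IPs (4 higher, 29.9% of the background). At a threshold of 1, 0 of the 8 genes passed in these comparisons; of the background, 7.97% were higher and 4.61% lower in PABPN IP over Input, 0.0625% and 3.81% in PABPC IP over Input, and 12.3% and 16.6% between the IPs.

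Editing depended on the pseudocount. With 0.1 EPKM the median was -0.11 for PABPN IP over Input (0 higher, 0 lower; 4.32% and 7.11% of the background), 0.37 for PABPC IP over Input (1 higher, 0 lower; 6.21% and 4.26%) and 0.52 between the IPs (2 higher, 9.004% of the background). With 0.001 EPKM it was -1.02 (2 higher, 32.5% of the background), 0.99 and 1.67. Centred on protein-coding genes it was 0.54 for PABPC IP over Input and 1.05 between the IPs. Divided by TPM it was -1.61 (5 lower), 0.18 and 1.22, against background medians of -0.82 (46.9% lower), -0.13 and 0.58. No called editing value of a single gene changed sign, but several fell within the threshold. Between the IPs, FDPS fell to 0.78 when centred on protein-coding genes. In PABPC IP over Input, SQLE fell to 0.61 when divided by TPM. With 0.1 EPKM, HMGCS1, FDFT1, SQLE and INSIG1 fell within it in PABPN IP over Input. So did HMGCS1, FDFT1 and SQLE in PABPC IP over Input, and FDPS, FDFT1 and INSIG1 between the IPs. The percentile by TPM moved to 85.4 in Input, 82.4 in PABPC IP and 79.0 in PABPN IP without the filter, and to 76.8 in PABPN IP with TPM of at least 1. The percentile by EPKM moved to 71.5 and 74.1 in Input, 76.0 and 78.1 in PABPC IP, and 46.9 and 50.6 in PABPN IP, with TPM of at least 1 and without a filter. Of 254 alternative values, 163 stayed within these rules, but some of the 163 could not have moved. For editing ratios a change of filter alters only the background, so the ratios and counts of the genes stayed the same by construction. Centring the editing ratios of PABPN IP over Input subtracted a background median of 0 and changed nothing. The tally therefore overstates how stable the results were.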

Other observations

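Enzymes of the isoprenoid branch, which draw on farnesyl diphosphate, were all found and passed the filter, 11 of 11. By TPM, given as centred log2 ratios, PDSS1 (0.58) was higher in PABPN IP than in Input, 1 of 11 against 23.7% of the background, and none was lower, against 20.6%. Without centring 11 of 11 were higher, against 84.1%. RABGGTB, a subunit of Rab geranylgeranyl transferase, had 63.0 TPM in Input, 161.5 in PABPN IP and 50.7 in PABPC IP, with a ratio of -1.26 in PABPC IP, the 1 of 11 lower there against 17.4%. NUS1 (0.51) was the 1 higher there, against 9.02%. Without centring 9 of 11 were higher there and 0 lower, against 80.2% and 0.854%, and the ratio of RABGGTB was -0.31. Between the IPs, COQ2 (0.56) was higher in PABPC IP, 1 of 11 against 29.9%, and RABGGTB (-1.47) and PGGT1B (-0.55) were lower, 2 of 11 against 31.1%; without centring 0 were higher and 4 lower, against 22.7% and 37.2%. EPKM was at least 2-fold higher in PABPC IP than in PABPN IP for 7 of 11 (PGGT1B, GGPS1, FNTA, PDSS2, NUS1, RABGGTB and DHDDS), against 36.3% of the background, and lower for RABGGTA and PDSS1, 2 of 11 against 21.1%. The median log2 difference was 1.82, against 0.32 for the background. In PABPN IP 6 of 11 were lower than in Input, against 29.6%, and 2 higher, against 28.4%, with a median of -1.51 against 0. In PABPC IP 2 of 11 were higher than in Input, against 35.1%, and 1 lower, against 19.5%, with a median of 0.42 against 0.30.

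Of 12 fatty acid synthesis enzymes under SREBF1, 10 passed the filter; ACACB and LPIN1 did not. FASN, fatty acid synthase, had 144.9 TPM in Input, 365.6 in PABPN IP and 138.2 in PABPC IP, with a centred log2 ratio of -1.02 in PABPC IP. ACLY (-0.71) and ACACA (-0.67) were lower there too, 3 of 10 against 17.4% of the background, and none was higher, against 9.02%. Without centring 7 of 10 were higher there and 0 lower, against 80.2% and 0.854%, and the ratios of FASN, ACLY and ACACA were -0.069, 0.24 and 0.28. ACACA (0.72), ELOVL6 (0.59) and ACSS2 (0.51) were higher in PABPN IP than in Input, 3 of 10 against 23.7%, and ELOVL5 (-0.71), ACLY (-0.65) and FADS2 (-0.60) were lower, 3 of 10 against 20.6%. Without centring 8 were higher and 0 lower, against 84.1% and 0.583%, and the ratios of ELOVL5, ACLY and FADS2 were 0.39, 0.46 and 0.50. FASN was listed at 0 EPKM in Input and PABPN IP and had 0.301 in PABPC IP. EPKM was at least 2-fold higher in PABPC IP than in PABPN IP for 6 of 10 (FASN, ACLY, SCD, ELOVL6, FADS1 and FADS2) and lower for none, against 36.3% and 21.1% of the background. Their median log2 difference was 1.22, against 0.32. By EPKM, 5 of 10 were lower in PABPN IP than in Input, against 29.6%, and 2 higher, against 28.4%. In PABPC IP 3 of 10 were higher than in Input, against 35.1%, and 1 lower, against 19.5%. By TPM between the IPs, ELOVL5 (0.59) was higher in PABPC IP, 1 of 10 against 29.9%. ACACA (-1.36), FASN (-1.21) and ACSS2 (-0.52) were lower, 3 of 10 against 31.1%. Without centring 0 were higher and 3 lower, against 22.7% and 37.2%.

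Of 10 genes of cholesterol esterification and efflux, 8 were found and 5 passed the filter. One of the 5, ACAT1, encodes a mitochondrial thiolase that neither esterifies nor exports cholesterol and was put on the list in error; the esterifying enzyme is SOAT1. Leaving ACAT1 out was a choice made after the data were seen and applied to no other gene of the list. Without ACAT1, 1 of 4 was lower in PABPN IP than in Input, OSBP (-0.62), against 20.6% of the background. OSBP (-0.67) and SOAT1 (-0.62) were lower in PABPC IP, 2 of 4 against 17.4%. None of the 4 passed the threshold between the IPs by TPM. Over all 5, without centring, 3 were higher and 0 lower in PABPN IP, against 84.1% and 0.583%, and likewise in PABPC IP, against 80.2% and 0.854%. EPKM was at least 2-fold lower in PABPC IP than in PABPN IP for NR1H2, 1 of 4 against 21.1%, and higher for none. With ACAT1, which had centred log2 ratios of -1.07 in PABPN IP and 0.94 between the IPs, 2 of 5 were lower in PABPN IP by TPM, against 20.6%, and 1 of 5 was higher in PABPC IP than in PABPN IP, against 29.9%.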
